A study of Mus musculus with 107 samples.

Results

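The genes described here encode the proteins that license origins of DNA replication and build the replication fork. A list of 41 gene symbols defined the set, and all 41 were found among the 21564 symbols of the deposited count table. They fall into 9 groups by role: MCM helicase subunits and relatives, the origin recognition complex (ORC), the loaders with their inhibitor geminin, GINS with CDC45, the DBF4-CDC7 kinase, polymerases with primase, the PCNA clamp with its RFC loader, replication protein A (RPA), and the enzymes that join Okazaki fragments. The study sequenced 107 single mouse eggs with Smart-seq2, a method that copies full-length polyadenylated RNA of 1 cell and does not mark its strand.

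All eggs came from C57BL/6J females of 2 to 3 months that had received 5 IU of pregnant mare serum gonadotropin 48 h before. Oocytes were collected at the germinal vesicle stage in 2.5 µM milrinone, which holds them in prophase, then released to mature in culture, and every egg was taken 38 to 40 h after germinal vesicle breakdown. The activated group held 17 wildtype eggs placed in 10 mM strontium chloride without calcium for 2 h, starting 15 to 16 h after breakdown. Strontium releases stored calcium and starts development without sperm. The mutant group held 61 mos -/- eggs, named M1 (22 eggs), M2 (18 eggs) and M3 (21 eggs), names that the labels do not define. These were set against 29 unactivated wildtype eggs. The deposit also gives a growth number, which the labels do not define and which the model left out. Batch 1 held 9 mutant and 5 wildtype eggs, and batch 2 held 17 activated, 52 mutant and 24 wildtype eggs. No label ties an egg to an animal, and in batch 2 the activated eggs and the wildtype eggs each occupied a plate of their own while mutant eggs filled the other 2, so group and plate cannot be told apart there.

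Before S phase, ORC marks origins, and CDC6 and CDT1 load the ring-shaped MCM helicase onto DNA there. Geminin binds CDT1 and stops reloading. DBF4-CDC7 then phosphorylates MCM, CDC45 and GINS join it to form the working helicase, and primase, polymerases, PCNA and RPA follow. The full-grown oocyte is largely silent in transcription, and it stores messenger RNA for these proteins during growth, for use in the first cell cycles after fertilization. MOS is the kinase that keeps MAP kinase active in metaphase II. In frog eggs that activity is known to hold back DNA replication between the meiotic divisions.

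Totals ran from 44 to 9132471 counts per egg, and 3 mutant eggs of batch 2 held under 10000. Because eggs of unknown parentage are not replicates, the eggs of a group in a batch were added up, which gave 9 sums of 5436993 (wildtype, batch 2) to 36209306 counts (wildtype, batch 1). Mos itself summed to 5.33 raw CPM (counts relative to the library total) in activated eggs, 0.868 to 13.3 in the 6 mutant sums and 6.52 and 31.6 in the 2 wildtype sums, that is, below wildtype in every mutant sum of the same batch but not 0. Counts of Mos in mutant eggs check the labels only in part, since the type of allele is not given. All 10 oocyte markers found were present in each sum, together at 5375 raw CPM in activated eggs, 4534 to 15531 in mutant sums and 9125 and 13793 in wildtype sums. The 16 granulosa and cumulus markers summed to 110 raw CPM in activated eggs and 222 to 319 in mutant sums. In wildtype sums they reached 284 and 305. Among them Ptx3 was at 0 and Foxl2 at 3 counts or fewer everywhere. Serpine2 had 950 to 9920 counts and Cyp19a1 66 to 550 over the 9 sums. Amh had 120 counts in the M3 sum of batch 1 and 0 in both wildtype sums. The 6 blood markers stayed at or below 29.3 raw CPM, with Ptprc at 0 and Laptm5 at 52 to 306 counts. The 8 stromal and endothelial markers stayed at or below 134 raw CPM, with Pecam1 at 419 to 2502 counts. Their part in the results was not tested. Some eggs stood apart: the median Spearman correlation with the other eggs of its set was 0.378 for wildtype egg 45 and 0.393 for M2 egg 14, both of batch 2. A further 7 eggs of batch 2 lay under 0.6, of which 1 was wildtype (egg 33) and 6 were mutant. Egg 45 held all but 4 of the 112 Fen1 counts and all but 61 of the 175 Gins4 counts of wildtype eggs in batch 2, so results on these genes are given with and without it. It moved the wildtype level of 8 members in batch 2 by over 1.5 times: besides Fen1 and Gins4, raw CPM was 38.8 with it and 20.6 without it for Mcm5, 9.56 and 5.61 for Rfc4, 14.9 and 2.41 for Pold1, 6.99 and 0.601 for Pole, 7.72 and 3.01 for Rpa2, and 1.84 and 1.20 for Rfc2.

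The set was abundant for the egg. The median member stood at 13.02 raw CPM per kb of exon (median over the 9 sums), against 0.953 for the 16613 genes with a count and a known length, and 40 of 41 members lay above that median. The highest levels were those of 5 licensing genes. Cdt1 had 113 raw CPM per kb, Mcm4 105, Orc6 103.3, Gmnn (geminin) 94.5 and Mcm2 86.4, followed by Dbf4 at 58.8. The lowest levels were those of Pole, the catalytic subunit of the leading-strand polymerase, at 0.755, Prim1, the catalytic primase subunit, at 1.15, Pold1 at 1.33 and Rfc2 at 1.46. Messages for partners in 1 complex were far from equal. The highest MCM2-7 subunit, Mcm4, exceeded the lowest, Mcm3, by 9.59 times in level per kb, Orc6 exceeded Orc3 by 40.3 times, and Rfc1 exceeded Rfc2 by 20.1 times. Part of this order held from sum to sum: Orc6 was the highest and Orc3 the lowest ORC subunit in all 9 sums. Mcm3 was the lowest MCM2-7 subunit in 8, the exception being activated eggs, while the highest was Mcm4 or Mcm2. The RFC order moved: Rfc5 was highest in both wildtype sums and Rfc1 in the activated sum. Rfc4, not Rfc2, was the lowest RFC subunit in the mutant sums of batch 1.

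**Figure D1:**
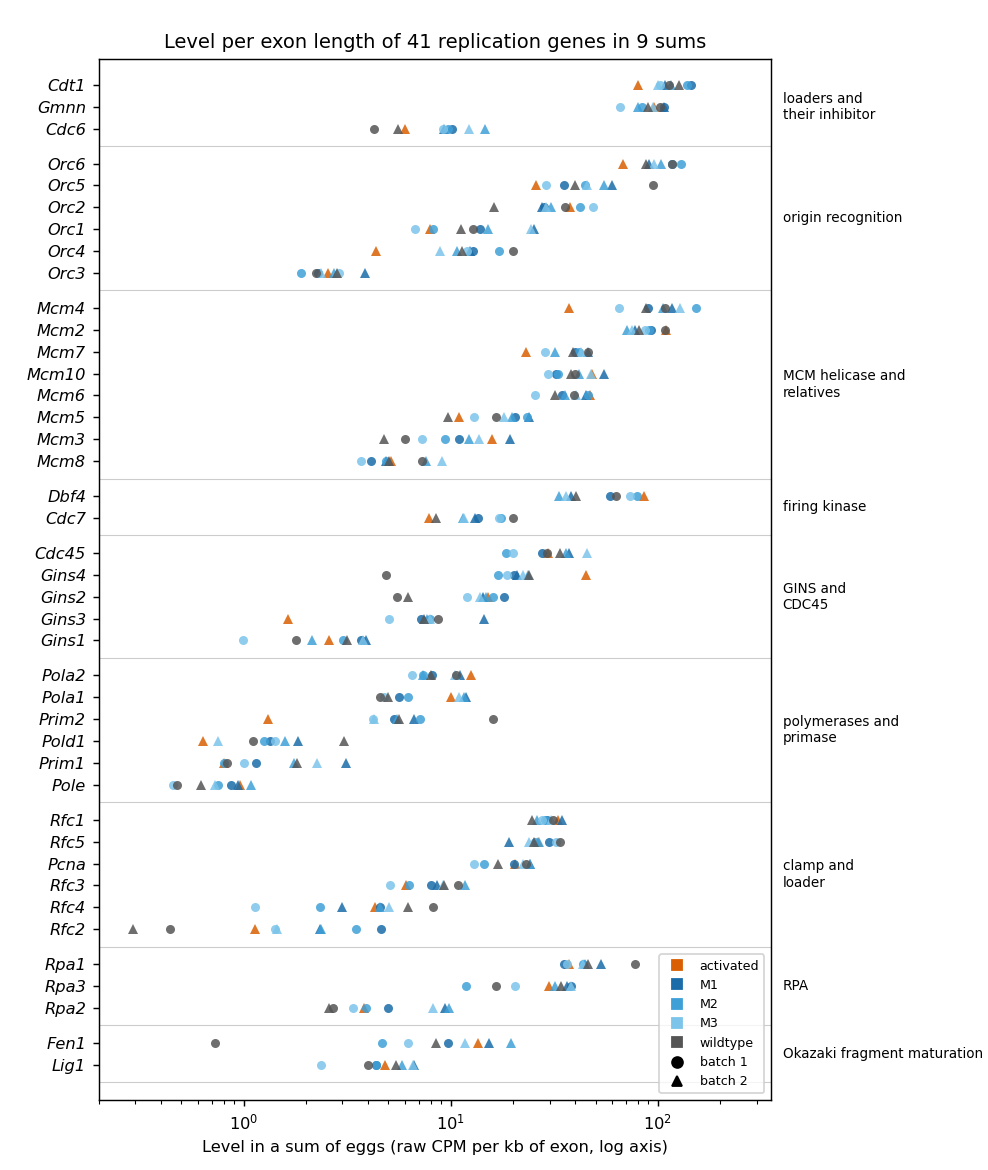
Level of each of the 41 genes per exon length (horizontal log axis, raw CPM per kb of exon) in the 9 sums, with colour for the group and symbol for the batch. The licensing genes Cdt1, Mcm4, Orc6, Gmnn and Mcm2 lie near 100, polymerase and primase genes lie at or below 15.9, and subunits of 1 complex spread widely.

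In frog and mouse oocytes, stored messages are switched on and off through U-rich cytoplasmic polyadenylation elements in the 3' UTR, so the ends of the members' transcripts were read from GENCODE M21 (GRCm38). Of 40 members with a 3' UTR of at least 100 bases, 18 (45%) held TTTTAT or TTTTAAT in the last 100 bases, searched on the transcript strand only. Among 12689 tested protein-coding genes with such a UTR the share was 19.3%. The most abundant members carried the element most often: 9 of the 10 members of highest level per kb had it, against 9 of the other 30, while 27.3% of the 1073 tested genes at or above the level of the tenth member did. The polyadenylation signal AATAAA or ATTAAA was about as common in members (80%) as in tested genes (81.3%). Windows of 30 bases are shown for the 6 most abundant members and for 3 others that were lower in activated eggs, 5' to 3' on the transcript strand, with the element in capitals and coordinates of GRCm38.
Cdt1 (chr8:122573076-122573105, plus strand): gttttggcTTTTAATaaagtcatgtaagat
Mcm4 (chr16:15623965-15623994, minus strand): tcattaatTTTTATagatccttagattatt
Orc6 (chr8:85308009-85308038, plus strand): tttttaaaTTTTATttcactaaatgttata
Gmnn (chr13:24751909-24751938, minus strand): ttaatccgTTTTATgtaaatagcattttca
Mcm2 (chr6:88883487-88883516, minus strand): agtttattTTTTAATagatttgaataaaac
Dbf4 (chr5:8397011-8397040, minus strand): tacaataaaaacttaatgacttaTTTTATa
Mcm7 (chr5:138164610-138164639, minus strand): ctgcacttTTTTATtctgccaataaagtgt
Orc4 (chr2:48902873-48902902, minus strand): gtaaataaTTTTATgcacattataccaaat
Gins3 (chr8:95645010-95645039, plus strand): aaattgtcTTTTATcattcgactttcatcc
These are matches of letters, and whether they act in the egg was not measured.

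The first comparison asks how loss of MOS changed the stored replication messages. In mutant eggs 3 members rose and 2 fell. Rfc2, a subunit of the RFC clamp loader, rose 5.68-fold, Gins2, a subunit of GINS, rose 2.14-fold, and Cdc6, which loads MCM at origins, rose 1.88-fold. Prim2, the regulatory primase subunit, and Rpa1, the large subunit of the single-strand binding protein RPA, were 2.19 and 1.70 times lower. These are 5 of 41 members at an adjusted p under 0.05 by edgeR's quasi-likelihood test over 13832 genes, beside 9.38% of all genes tested in that contrast (5.36% higher and 4.03% lower), so the share called is close to the background. The median log2 fold was -0.18 over the members and 0.06 over all genes, and 13 members had a fold above 0. The other 36 members did not pass. Of the oocyte markers 2 of 10 tested rose and 4 fell in the same comparison, and their part in these results was not tested. None of the 8 MCM genes, 6 ORC genes or 2 kinase genes was called.

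Rfc2 (chr5:134581366-134601805, plus strand, GRCm38) had the largest fold of the set. Scaled by TMM, its level was 27.7, 22.6 and 9.31 CPM in the M1, M2 and M3 sums of batch 1, against 3.13 in wildtype, and 13.9, 13.9 and 8.50 in batch 2, against 2.14 in wildtype. No mutant sum overlapped a wildtype one in either batch. The log2 fold was 2.51 ± 0.43 (SE of the edgeR fit, adjusted p = 0.0013). In batch 2 a count of Rfc2 was present in 40 of 49 mutant eggs with over 10000 counts and in 3 of 24 wildtype eggs. With every egg thinned to 60000 counts these became 21 of 49 (42.9%) and 1 of 24 (4.17%). Rfc2 shares 15.1% of its exon bases with Lat2 on the opposite strand, and reads from the shared part cannot be assigned to a strand.

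Gins2 (chr8:120578633-120589304, minus strand) had 70.3, 67.01 and 51.1 CPM in the M1, M2 and M3 sums of batch 1, against 25.4 in wildtype. In batch 2 the values were 55.6, 56.7 and 52.4 CPM, against 29.5 in wildtype, again without overlap. Its log2 fold was 1.10 ± 0.25 (adjusted p = 0.00903). Single mutant eggs of batch 1 ran from 37.7 through a median of 64.9 to 115.2 raw CPM, and the 5 wildtype eggs from 12.04 through 24.5 to 33.6. The exons of Gins2 overlap those of Gse1 on the opposite strand over 67.3% of their length. Gse1 was not called itself, with a log2 fold of 0.46 (adjusted p = 0.25).

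Cdc6 stood at 50.6, 52.2 and 49.7 CPM in the M1, M2 and M3 sums of batch 1, against 24.98 in wildtype. In batch 2 it was at 45.7, 71.3 and 59.5 CPM, against 33.8 in wildtype. All 6 mutant sums lay above both wildtype sums, and the log2 fold was 0.91 ± 0.25 (adjusted p = 0.0281). Its partner in MCM loading, Cdt1, had a log2 fold of -0.28 and geminin one of -0.35, neither called.

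The 2 falls came mostly from batch 1. Prim2 had 30.3, 43.4 and 26.02 CPM in the mutant sums of batch 1, against 106 in wildtype, but 37.1, 30.3 and 23.3 CPM in batch 2, against 38.7 in wildtype. The log2 ratio of mutant to wildtype was thus -1.71 within batch 1 and -0.38 within batch 2, for a fitted fold of -1.13 ± 0.28 (adjusted p = 0.0182). Rpa1 likewise had 187, 251 and 210 CPM in batch 1, against 487 in wildtype, and 279, 232 and 224 CPM in batch 2, against 297 in wildtype. Its fitted log2 fold was -0.77 ± 0.21 (adjusted p = 0.0281), with ratios of -1.18 and -0.29 within the batches. In both genes all 3 mutant sums were below wildtype in each batch after TMM scaling. On raw CPM the M1 sum of batch 2 stood above wildtype, at 39.4 against 33.3 for Prim2 and 296 against 256 for Rpa1.

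**Figure D2:**
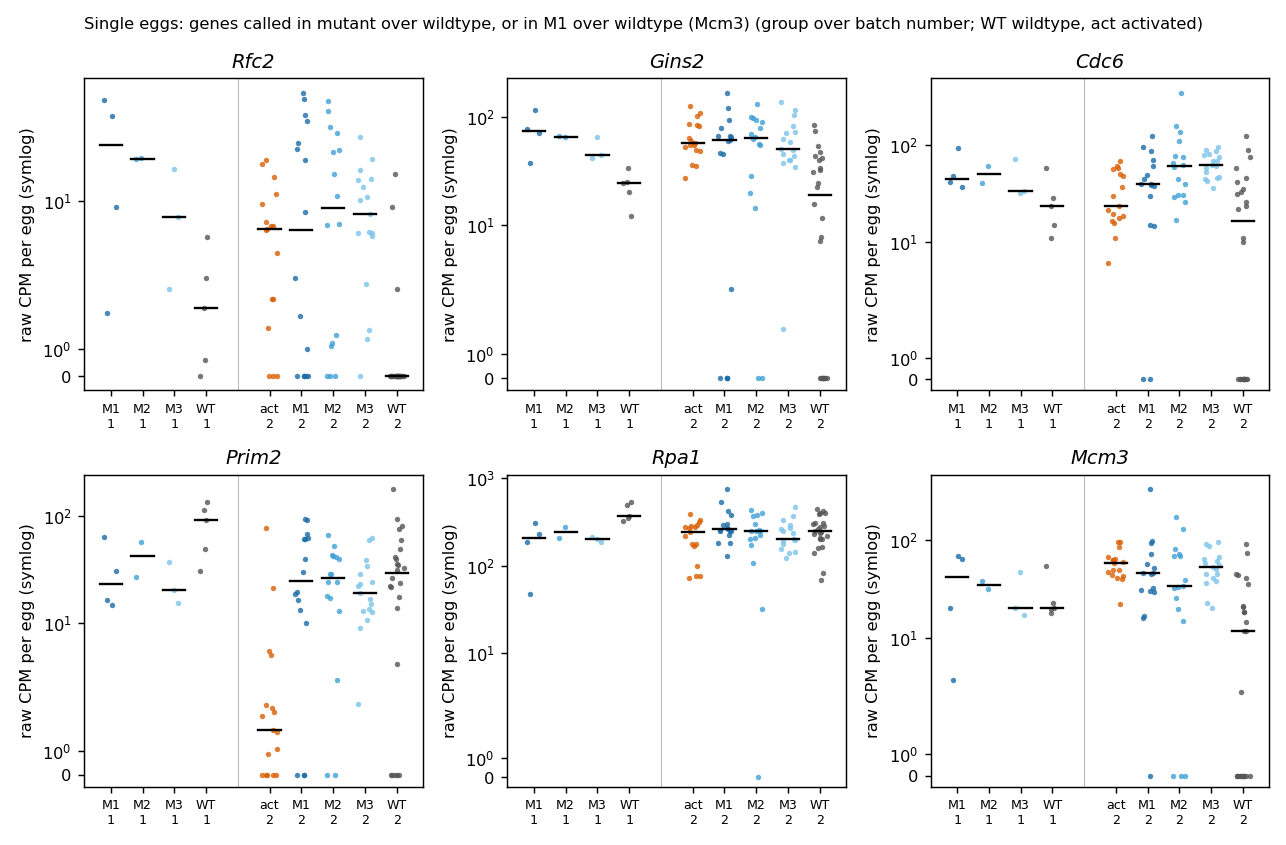
Raw CPM of 6 genes in each egg of over 10000 counts (vertical symlog axis, linear below 5), with groups side by side within batch 1 and batch 2 and a bar at the median. Rfc2 has a median of 0 in wildtype eggs of batch 2, Gins2 and Cdc6 sit higher in mutant eggs of both batches, and Prim2 and Rpa1 are separated mainly in batch 1.

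The Okazaki enzyme FEN1, which removes RNA primers, gave the widest gap between settings. Fen1 had 22.3, 11.6 and 15.7 CPM in the mutant sums of batch 1, against 1.99 in wildtype, and 35.02, 43.9 and 26.1 CPM in batch 2, against 23.95 in wildtype. The M2 sum of batch 2 rests largely on M2 egg 10, with 47.1 raw CPM with that egg and 25.4 without it. With all eggs its log2 fold was 1.55 ± 0.54 (adjusted p = 0.11), so it was not called. Without wildtype egg 45 the wildtype sum of batch 2 held 4 counts, or 0.802 raw CPM, against 20.6 with it. Without that egg and M2 egg 14, Fen1 rose by 3.61 ± 0.48 on the log2 scale (adjusted p = 7.52e-05). In batch 2, 44 of 49 mutant and 4 of 24 wildtype eggs had a Fen1 count, and at equal depth 61.2% and 12.5% did. Fen1 shares 78.8% of its exon bases with Gm10143, an antisense transcript. Gins4, another GINS subunit, followed the same course: its log2 fold was 0.50 ± 0.41 with all eggs (adjusted p = 0.54), and it rose by 1.34 ± 0.31 without the 2 eggs (adjusted p = 0.0076). Those 2 eggs were chosen after their values were seen. Leaving them out brought the count of called members to 9, with 6 higher and 3 lower, all 5 above among them, and 12.7% of all genes called. The 4 added were Fen1, Gins4, Mcm3 and Rfc3. With all 9 eggs of low correlation left out it was 10, beside 13.7% of all genes.

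Mcm3, the lowest of the MCM2-7 messages, was the only MCM gene higher than wildtype in every mutant sum. It had 39.4, 36.1 and 28.3 CPM in batch 1, against 25.5 in wildtype, and 68.4, 42.9 and 47.5 CPM in batch 2, against 20.7 in wildtype. The pooled fold missed the threshold at 0.82 ± 0.28 (adjusted p = 0.0715), and M1 alone passed. In the M1 sum of batch 2, egg 11 brought the raw level to 72.5 CPM, against 44.8 without it, and the M1 call was lost without the 9 eggs of low correlation, of which it is 1 (log2 fold 0.81, adjusted p = 0.11). Mcm2 was lower in every mutant sum, at 613, 647 and 625.04 CPM against 847 in wildtype in batch 1, and at 509, 460 and 485 CPM against 654 in wildtype in batch 2, with a log2 fold of -0.43 ± 0.16 that was not called (adjusted p = 0.11).

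None of the members not yet given was called between mutant and wildtype eggs. Of the ORC genes, Orc4 was lower in every mutant sum than in wildtype of its batch (log2 fold -0.55 ± 0.21, adjusted p = 0.11), and Orc1, Orc2, Orc3 and Orc6 had folds of -0.16 to 0.24. That too holds after TMM scaling: on raw CPM Orc4 had 92.5 in the M1 sum of batch 2, against 84.4 in wildtype. In the clamp group Rfc4 had the lowest fold, with 6.67, 3.69 and 1.81 CPM in mutant sums of batch 1, against 14.2 in wildtype, and 4.30, 6.53 and 7.15 in batch 2, against 11.1 in wildtype (-1.42 ± 0.47, adjusted p = 0.0673). Without egg 45 the wildtype level of batch 2 fell to 5.61 raw CPM, within the range of the mutant sums (4.56 to 7.72). Rfc1, Rfc3, Rfc5 and the clamp Pcna had folds of -0.61 to -0.16. Of the RPA genes, Rpa2 was higher in every mutant sum (0.88 ± 0.36, adjusted p = 0.14) and Rpa3 had a fold of -0.02. Pola1, Pola2, Prim1, Pold1 and Pole had folds of -0.77 to 0.47. Cdc45, Gins1 and Gins3 had folds of -0.35, 0.01 and -0.26, Dbf4 and Cdc7 of -0.25 and -0.18, and the ligase Lig1 of -0.20. Mcm4, Mcm5, Mcm6, Mcm7, Mcm8 and Mcm10 had folds of -0.46 to 0.34.

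The 3 mutant names were also set against wildtype one by one. In M1 eggs Rfc2 (log2 fold 2.94 ± 0.48, adjusted p = 0.0016), Gins2 (1.20 ± 0.28, 0.0187) and Mcm3 (1.13 ± 0.33, 0.0492) rose. In M2 eggs Rfc2 (2.78 ± 0.48, 0.0024), Gins2 (1.18 ± 0.28, 0.0248) and Cdc6 (1.08 ± 0.29, 0.0427) rose, the Cdc6 call being lost without M2 egg 14 and wildtype egg 45 (0.91, adjusted p = 0.0654). In M3 eggs Rfc2 rose (1.80 ± 0.47, 0.0329) and Prim2 fell by 1.47 ± 0.37 on the log2 scale (0.0277). Of all genes, 5.65% were called in M1, 4.58% in M2 and 5.25% in M3. The 3 comparisons share their wildtype eggs. Compared with each other in sums per plate, over 11609 genes, M1, M2 and M3 differed in no member (0 of 41 in each of 3 contrasts by edgeR, and 0 by DESeq2 and by limma voom). Over all genes 0.0517% were called between M3 and M1 and none in the other pairs. At an unadjusted p under 0.05 there were 2: Rpa3 in M2 over M1 (log2 fold -0.76 ± 0.33) and Gins3 in M3 over M1 (-1.02 ± 0.46), both chosen by that p. The Gins3 level of M1 leans on single eggs. In batch 2 it was 39.1 raw CPM with egg 11 and 27.3 without it. In batch 1 it was 19.4 with egg 6 and 11.2 without it. Of all 11609 genes, 718 reached that p in M2 over M1, 914 in M3 over M1 and 334 in M3 over M2.

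Wildtype eggs themselves moved between batches, and with them the mutant response. Orc5 had 207, 283 and 184 CPM in the mutant sums of batch 1, against 658 in wildtype, and 349, 315 and 261 CPM in batch 2, against 285 in wildtype. The response of batch 2 exceeded that of batch 1 by 1.68 ± 0.34 on the log2 scale (adjusted p = 0.0413, edgeR, a test added after the data were seen), the 1 member called beside 0.318% of all genes. Limits for the whole comparison are the single wildtype sum per batch and mutant sums that may share animals. Without a batch term no member was called (0.369% of all genes), with sums per plate Rfc2 alone was (3.06%), and without the M1 or the wildtype sum of batch 1 the count was 2 (5.68% and 7.54%). With each egg weighted equally, as means of log2 CPM, it was 8, all higher (10.3%).

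**Figure D3:**
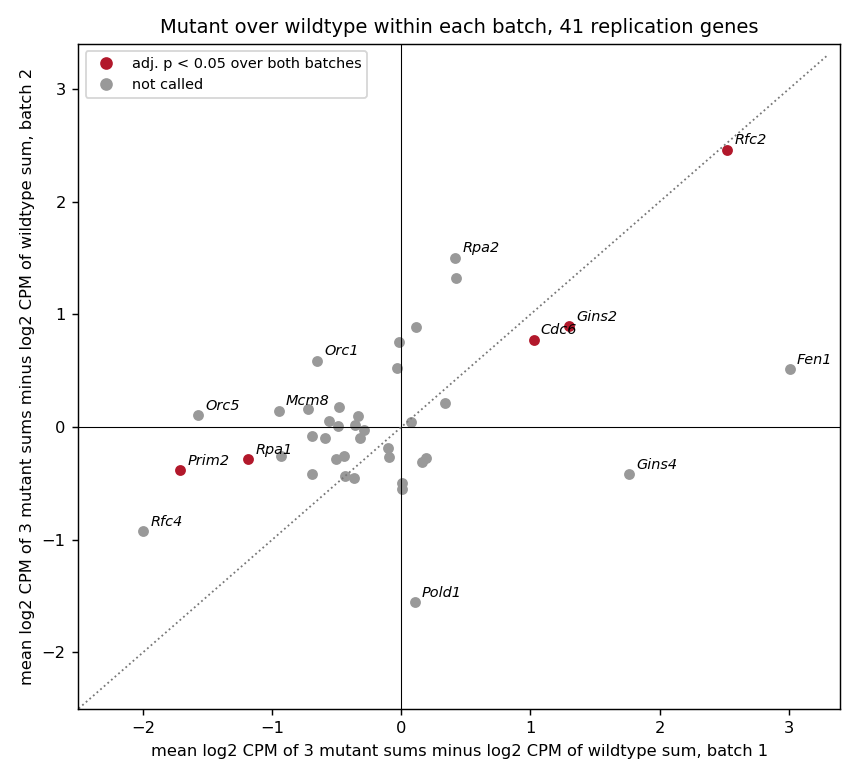
Each point is 1 of the 41 genes, placed by the log2 ratio of mutant to wildtype in batch 1 (horizontal) and batch 2 (vertical), on equal scales with a dotted line of equality. Rfc2, Gins2 and Cdc6 lie near the line in the upper right, Prim2 and Rpa1 are lower mainly in batch 1, and Fen1, Gins4 and Orc5 lie far from the line.

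The second comparison asks what parthenogenetic activation did to the same messages. Activated eggs held less Prim2, Gins3, Orc4, Mcm4 and Mcm7, and more Dbf4 and Gins2, than unactivated wildtype eggs. Prim2 was 8.18 times lower, Gins3, a GINS subunit, 6.80 times, Orc4 3.51 times, and the helicase subunits Mcm4 and Mcm7 3.33 and 2.24 times. Dbf4, the activating partner of the CDC7 kinase, rose 1.90-fold and Gins2 2.16-fold. These fitted folds draw on wildtype eggs of both batches, while activated eggs were in batch 2 only. Within batch 2 the log2 ratio of activated to wildtype was -2.43 for Prim2, -2.51 for Gins3 and -1.70 for Orc4. It was -1.56 for Mcm4, -1.08 for Mcm7, 0.75 for Dbf4 and 0.96 for Gins2. For Orc5 and Orc1, which were not called, it was -0.95 and -0.84. The count of 7 of 41 members called compares with 13% of all genes tested (5.66% higher and 7.33% lower), again near the background. The median log2 fold was -0.43 over the members and 0.15 over all genes, and 12 members had a fold above 0. Of the oocyte markers 5 of 10 tested fell and none rose in activated eggs, and of the granulosa and cumulus markers 1 of 12 tested fell, and their part in these results was not tested. Activated eggs formed 1 sum, in batch 2, so their spread is taken from the other groups, and treatment and plate cannot be told apart.

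Prim2 stood at 7.17 CPM in the activated sum, against 38.7 in the wildtype sum of batch 2 and 106 in that of batch 1, a fitted log2 fold of -3.03 ± 0.54 (adjusted p = 0.0012). A single activated egg gave 65 of its 105 counts, and the raw level was 7.77 CPM with it and 3.16 without it. Over the 17 activated eggs the raw values ran from 0 through a median of 1.88 to 77.1 CPM, and over 24 wildtype eggs of batch 2 from 0 through 29.2 to 178. Thinned to equal depth, 17.6% of activated and 70.8% of wildtype eggs of batch 2 had a Prim2 count.

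Gins3 had 4.10 CPM in the activated sum, against 23.3 and 26.4 in the wildtype sums of batches 2 and 1 (log2 fold -2.77 ± 0.57, adjusted p = 0.0032). Among activated eggs 6 of 17 had no count, as had 7 of 24 wildtype eggs of batch 2 at their lower depth, and at equal depth 23.5% and 45.8% had one. Orc4 had 30.1 CPM, against 98.1 and 167 in wildtype (-1.81 ± 0.36, adjusted p = 0.0026). Both genes were thus lower than in either wildtype sum. Orc4 exons overlap Acvr2a on the opposite strand over 5.98% of their length, and Acvr2a itself had a log2 fold of -2.55 (adjusted p = 0.0211).

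Mcm4 reached 123.5 CPM in the activated sum, against 364 and 439 in wildtype, with a log2 fold of -1.73 ± 0.40 (adjusted p = 0.0090). Single activated eggs ran from 29.0 through 110 to 382 raw CPM, and wildtype eggs of batch 2 from 86.1 through 341 to 511. The ranges overlapped. The lowest wildtype values were those of eggs 33 (86.1) and 45 (98.1), both of low correlation, and the next was 189 in egg 36. Apart from eggs 33 and 45, each wildtype egg of batch 2 thus lay above the median of activated eggs. Mcm7 had 94.6 CPM, against 200 and 229 in wildtype (-1.16 ± 0.34, adjusted p = 0.0289). Mcm2 stood at 703 CPM, against 654 and 847 in wildtype (log2 fold 0.10 ± 0.26), and Mcm6 at 203, against 173 and 207 (0.08 ± 0.34), neither of them called. Per kb of exon, Mcm4 was the first or second MCM2-7 message in the other 8 sums and the third in activated eggs, behind Mcm2 and Mcm6.

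Dbf4 rose to 691 CPM in activated eggs, against 410 in wildtype eggs of batch 2 and 613 in those of batch 1. Its log2 fold was 0.93 ± 0.29 (adjusted p = 0.0425). Activated eggs ran from 253 through 693 to 1165 raw CPM, and wildtype eggs of batch 2 from 141.1 through 388 to 587. Cdc7, the kinase itself, had 30.2 CPM, against 41.5 and 93.9 in wildtype, and was not called. Per kb the Dbf4 message was 10.9 times the Cdc7 message in activated eggs, 2.90 to 4.54 times in mutant sums and 4.74 and 3.13 times in wildtype sums of batches 2 and 1. The Dbf4 call was lost without wildtype egg 45 and M2 egg 14 (log2 fold 0.82, adjusted p = 0.081). Gins2 had 57.2 CPM, against 29.5 and 25.4 in wildtype (1.11 ± 0.35, adjusted p = 0.0416). The overlapping Gse1 had a log2 fold of 0.28 (adjusted p = 0.66).

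**Figure D4:**
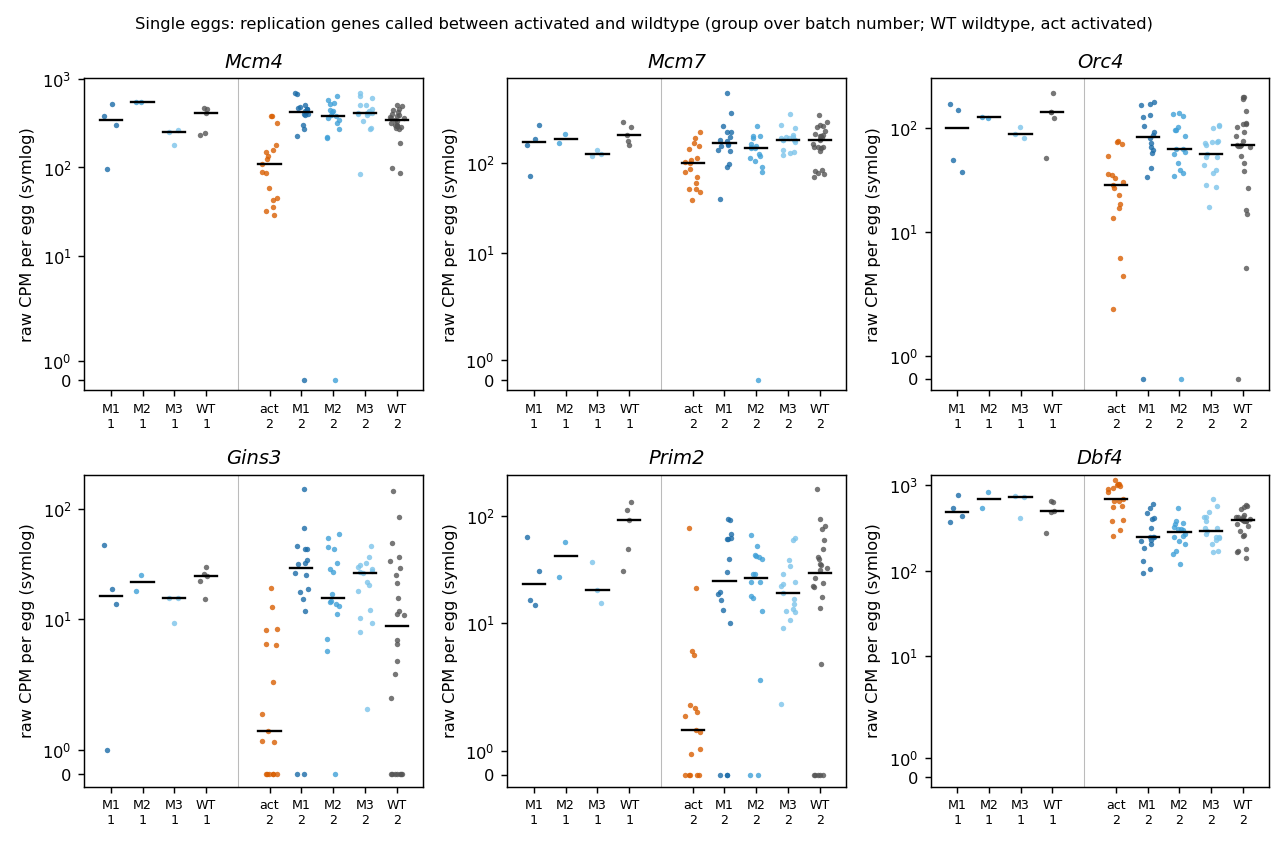
Raw CPM of 6 genes in each egg of over 10000 counts (vertical symlog axis, linear below 5), grouped as for the mutant genes, with a bar at the median. In batch 2 the activated eggs lie lowest for Mcm4, Mcm7, Orc4, Gins3 and Prim2, and highest for Dbf4, with ranges that overlap the other groups.

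Among members that were not called in activated eggs, Orc5 (log2 fold -1.73), Orc1 (-1.39), Rpa1 (-1.02) and Rfc3 (-1.23) had folds below 0, and Rfc2 had one above (1.66), at adjusted p of 0.0559 to 0.085. Without the 2 eggs that stood apart, the count was 12, with 4 higher and 8 lower, beside 14.7% of all genes. Orc5, Orc1, Rpa1, Rfc2, Fen1 (3.53 ± 0.60) and Gins4 (2.21 ± 0.42) were then called, and Dbf4 was not. Without a batch term 1 member was called, Prim2 (1.42% of all genes), with sums per plate 3 (4.99%), and without the wildtype sum of batch 2 the count was 13 (10.2%).

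Of the 5 members lower in activated eggs, Mcm4, Mcm7, Orc4 and Gins3 carried the polyadenylation element shown above and Prim2 did not. Of the 18 members with the element 4 were called lower (22.2%), and of the 22 without it 1 (4.55%). Over all tested genes the shares called lower were 11.1% of 2452 with the element and 6.73% of 10237 without. In the other direction, Dbf4 carried the element and Gins2 did not, or 5.56% of members with it and 4.55% without. Over all tested genes the shares called higher were 4.36% and 5.97%. Whether the element bears on these changes was not tested.

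Set directly against mutant eggs, activated eggs differed in 5 of 41 members, beside 4.84% of all genes (1.42% higher and 3.43% lower). Dbf4 was higher, by 1.18 ± 0.25 on the log2 scale (adjusted p = 0.0109), with 691 CPM in the activated sum, against 312, 270 and 292 in the M1, M2 and M3 sums of batch 2. Gins3 was lower, with a log2 fold of -2.51 ± 0.52 (adjusted p = 0.0089), at 4.10 CPM against 36.8, 19.5 and 19.8 in the mutant sums. Egg 11 brought the raw Gins3 level of that M1 sum to 39.1 CPM, against 27.3 without it. Mcm4 was lower as well, with a log2 fold of -1.64 ± 0.37 (adjusted p = 0.0173), at 123.5 CPM against 398, 353 and 423. Prim2 (-1.90 ± 0.47, adjusted p = 0.026) and Orc4 (-1.26 ± 0.32, adjusted p = 0.0303) were lower too. The activated sum thus lay outside the range of the mutant sums of batch 2 for each of these. Gins2 had 57.2 CPM in activated eggs, against 55.6, 56.7 and 52.4 in mutant eggs (log2 fold 0.01 ± 0.32). Cdc6 stood at 28.9 CPM in activated eggs, against 45.7, 71.3 and 59.5 in mutant eggs, with a log2 fold of -1.04 ± 0.35 that was not called (adjusted p = 0.10). Without a batch term no member was called (0.253% of all genes) and with sums per plate 1 (1.21%). Without the M1 sum of batch 2 the count was 2 (2.73%), and without the M2 sum of batch 2 it was 3 (3.03%).

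**Figure D5:**
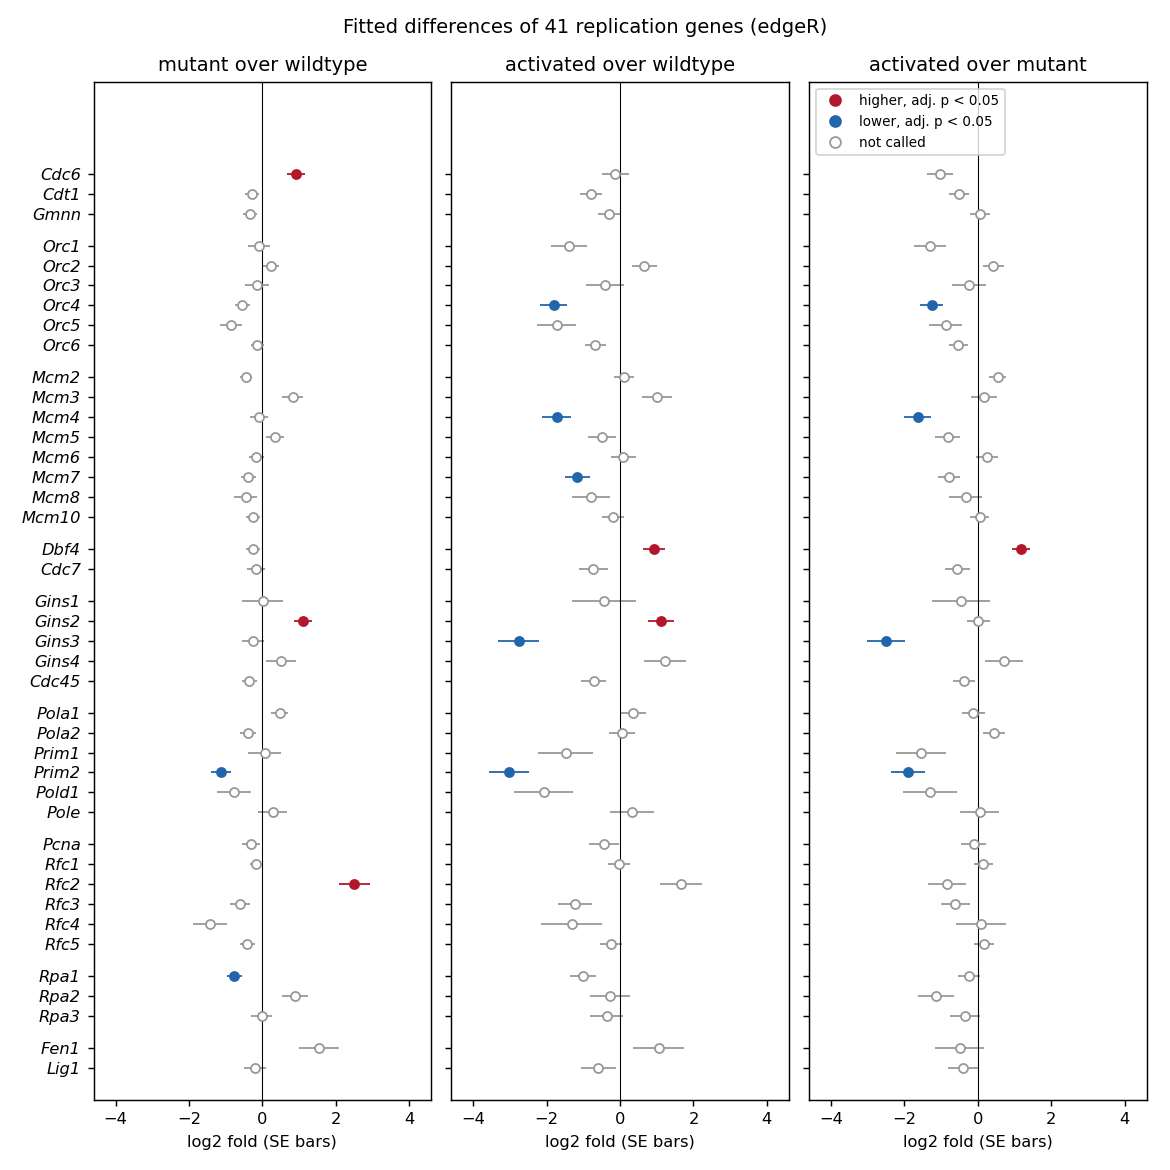
Fitted log2 folds with SE bars (horizontal axis) for the 41 genes in role order, in mutant over wildtype, activated over wildtype and activated over mutant eggs. Filled points passed an adjusted p of 0.05: 5, 7 and 5 genes, among them Gins2 higher in both comparisons with wildtype and Prim2 lower in each. The comparisons share samples.

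At equal depth, wildtype eggs of batch 2 had on average the fewest members and the fewest genes detected. Activated eggs of that batch had the most genes, and mutant eggs the most members. With each egg of batch 2 thinned to 60000 counts, 31.1 ± 2.2 members and 6727 ± 233 genes were detected in the 17 activated eggs, 32.7 ± 4.5 members and 6363 ± 870 genes in 49 mutant eggs, and 26.7 ± 3.5 members and 5208 ± 600 genes in 24 wildtype eggs (mean ± SD). Of those wildtype eggs, 9 had over 35% of their counts in 50 genes, and no other egg did. These 9 gave 23.9 ± 1.4 members and 4599 ± 235 genes, and the other 15 wildtype eggs gave 28.4 ± 3.4 members and 5573 ± 423 genes. In batch 1 there were 33.6 ± 2.7 members and 6593 ± 348 genes in 9 mutant eggs. The 5 wildtype eggs of that batch gave 31.4 ± 1.8 members and 6268 ± 229 genes. No test was made, since eggs are not replicates. Without those 9 wildtype eggs, 4 members were called in mutant and 6 in activated over wildtype eggs. The share of all genes called in that run is not given, so these counts are not read against a background.

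Genes that work beside the set were read from 4 further lists, chosen, like the members, with earlier results known. Of 33 tested replisome and firing factors, 3 rose and 1 fell in mutant eggs, and 4 rose and 4 fell in activated eggs, relative to wildtype. Of all genes tested, 5.36% rose and 4.03% fell in mutant eggs, and 5.66% rose and 7.33% fell in activated eggs. Pold3, a polymerase delta subunit, had 913 CPM in the activated sum, 580 to 735 in the mutant sums of batch 1 and 459 to 540 in those of batch 2, and 263 and 166 in the wildtype sums of batches 1 and 2. It rose by 2.35 ± 0.26 on the log2 scale in activated eggs (adjusted p = 2.78e-05) and by 1.46 ± 0.19 in mutant eggs (adjusted p = 0.000139). Chaf1b, a subunit of the chromatin assembly factor that works behind the fork, had 15.1 CPM in activated eggs, 4.98 to 13.2 and 6.87 to 9.78 in mutant sums of batches 1 and 2, and 1.58 and 1.28 in wildtype. It rose by 3.36 ± 0.65 in activated and 2.48 ± 0.50 in mutant eggs. Topbp1, a scaffold of helicase activation, rose by 2.28 ± 0.46 in mutant eggs. Top1, the topoisomerase that relieves twist ahead of the fork, fell by 1.46 ± 0.33 in activated eggs.

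None of 12 genes of nucleotide supply was called by edgeR in activated or mutant eggs relative to wildtype. Of 18 genes that control S phase or licensing, 1 rose and 3 fell in activated eggs and 1 fell in mutant eggs. Beside these counts, and those of the E2F and DREAM genes below, 13% of all genes were called in activated eggs and 9.38% in mutant eggs. Cdkn1a, which encodes the kinase inhibitor p21, had 28.7 CPM in the activated sum, 1.41 to 7.93 in the mutant sums and 1.74 and 1.92 in the wildtype sums, and rose by 3.57 ± 0.79 in activated eggs (adjusted p = 0.00562). Fbxo5, which encodes the inhibitor EMI1 of the anaphase promoting complex, had 40.9 CPM in the activated sum, 111 to 179 in the mutant sums and 215 and 143 in the wildtype sums, and fell by 1.91 ± 0.34 (adjusted p = 0.00106). Cdc25a, the phosphatase that activates CDK2, fell by 1.75 ± 0.34 in activated eggs. Ddb1, an adaptor of the ligase that destroys CDT1 in S phase, fell by 0.67 ± 0.17 in mutant eggs. Of 18 E2F and DREAM genes, which control transcription of replication genes in cycling cells, 2 rose and 2 fell in activated eggs and 1 fell in mutant eggs. The DREAM subunit Lin37 fell by 2.13 ± 0.42 in activated and 1.35 ± 0.23 in mutant eggs, Lin52 fell by 1.90 ± 0.54 in activated eggs, and Mybl2 rose by 0.92 ± 0.28 there.

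Between activated and mutant eggs, 2 replisome factors were higher and 2 lower. Of all genes tested in that contrast, 1.42% were higher and 3.43% lower. The firing factor Mtbp had a log2 fold of -1.60 ± 0.39, Top1 of -1.22 ± 0.30 and Pold3 of 0.89 ± 0.23. None of the 12 nucleotide supply genes was called, and of the S phase genes 1 was higher and 2 lower: Cdkn1a had a fold of 2.52 ± 0.61, Fbxo5 of -1.71 ± 0.31 and Cdc25a of -1.69 ± 0.32. Of the E2F and DREAM genes 3 were higher and 1 lower, among them Mybl2 with 1.18 ± 0.24, E2f4 with 1.14 ± 0.25 and E2f5 with 1.20 ± 0.30. These folds share the activated sum with those against wildtype.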

How the data were processed

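STAR and HTSeq are the tools named, and GRCm38 (mm10) the build, per the submitters' processing notes. Their versions, the annotation and the use of strand in counting were not given in the sources used here. The deposited values were raw counts per gene symbol for single eggs, whole numbers without normalization. Every column had a sample. The 41 members and all gene lists were chosen with earlier results of these data known. Counts of all eggs of a group in a batch were added, for 9 sums, because no label ties eggs to animals. The p-values thus rest on shifts between groups that were not shared by the batches, and that spread may be technical. A model with group and batch terms was fitted in edgeR 4.0.16 (R 4.3.3), with TMM scaling, a minimum count of 10 in its expression filter and quasi-likelihood F tests on 3 residual degrees of freedom, and Benjamini-Hochberg adjustment ran over 13832 genes with a threshold of 0.05. All 41 members passed the filter. Each SE is the size of the log2 fold over the root of its F statistic. CPM values are TMM-scaled unless called raw, and a relative level need not be an amount per egg. Mutant groups were compared in sums per plate, with 4 residual degrees of freedom. Levels per kb used the exon union of GENCODE M21, which gave a length for 88.8% of symbols. Of the members, 15 share exon bases with another annotated gene, 8 over more than 10% of their length. Thinning took 60000 counts per egg.

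Values were given for members called in a main comparison or between mutant groups, and for up to 3 called genes of each other list in each of the 3 main comparisons, by p. The rule also asked for values in every sum of members with the highest and lowest levels per kb, which are plotted for all 41. Mcm2, Mcm3, Mcm6, Fen1, Gins4, Orc5 and Rfc4 were added after their values were seen. Alternatives were other scalings (RLE, upper quartile), no filter, DESeq2 1.42.0, limma 3.58.1 voom, thinned eggs, means of log2 CPM with 0.5 added per count, eggs left out, no batch term, sums per plate, and each sum left out. Added after seeing the data were the test of batch difference, plates as in the deposited egg table, leaving out eggs of low correlation, and levels without the egg that held most counts of a gene. The tests were tried on simulated data first.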

Additional observations from a re-analysis of the deposited data

Results flagged for a closer look

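Mcm3 stood at 54.4 raw CPM in 1 of the 5 wildtype eggs of batch 1, where the next egg had 22.8. That egg had the lowest total of its group, 2609358 counts, against a median of 8144112. This was the 1 flag among 22 screens, each of 1 gene in 1 group of 4 to 10 eggs. Only the M1 and wildtype groups of batch 1 had such a size, so the screens share eggs. Chance flags about 1 in 20 of such screens.

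The mutant response differed between batches for 6 members: each mutant sum lay on 1 side of wildtype in batch 1 and on the other side in batch 2, or the difference itself passed a test. For Orc5 the log2 response of batch 2 minus that of batch 1 was 1.68 (adjusted p = 0.0413, edgeR interaction). For Gins4 it was -2.18, for Pold1 -1.64, for Orc1 1.24, for Pcna 0.884 and for Cdc7 0.66, none of which passed that test. The sides are those of TMM-scaled values: on raw CPM Orc1 had 48.3 in the M1 sum of batch 1, against 44.7 in wildtype. Gins4 and Pold1 in wildtype eggs of batch 2 came largely from egg 45. Gins4 had 32.2 raw CPM with it and 12.2 without it, below the mutant sums of 28.01 to 31.8. Pold1 had 14.9 raw CPM with it and 2.41 without it, below the mutant sums of 3.67 to 8.92, so its change of side between batches is not seen without that egg, and neither is that of Gins4.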

How the results depend on the processing

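Of the 41 members, 5 were called in mutant over wildtype eggs. The count was 9 without a filter, 11 by DESeq2, 8 by limma voom, 8 by mean log2 CPM over eggs, 0 without a batch term, 1 with sums per plate, 9 without wildtype egg 45 and M2 egg 14, and 10 without eggs of low correlation. Leaving out each sum in turn gave 2 to 7. In activated over wildtype eggs the 7 became 11 without a filter, 12 by DESeq2, 11 by limma voom, 1 without a batch term, 3 with sums per plate, 12 without the 2 eggs, 12 without eggs of low correlation and 5 to 13 with a sum left out. In activated over mutant eggs the 5 became 0 without a batch term, 1 with sums per plate and 2 to 7 with a sum left out. Between mutant groups the count stayed at 0 under each alternative run. No result changed sign once called. The cause of these moves was not tested. Several of the counts, among them those without a filter, by DESeq2 and by limma voom, are given without the share of all genes called. A larger count of members there is thus not read against the background of the same run.

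The Rfc2 call in mutant eggs was kept in 21 of 22 alternatives, Gins2 in 18, Prim2 and Rpa1 in 17 and Cdc6 in 12. In activated eggs Prim2 was kept in 21 of 21, Mcm4 and Gins3 in 20, Orc4 in 19, Mcm7 in 15, and Dbf4 and Gins2 in 11. The split of calls over all genes moved with the setting, where mean log2 CPM also weights eggs equally and adds 0.5 to each count: in mutant eggs 57.1% of calls were higher with TMM and 94.6% by mean log2 CPM, in activated over wildtype 43.6% with TMM, 54.1% with upper quartile and 65.8% by mean log2 CPM, and in activated over mutant 29.3%, 48.5% and 9.49%. The median of all genes in activated over wildtype moved from 0.15 to 0.30 with upper quartile and to -0.18 by mean log2 CPM. No paired analysis was possible because the sums carry no replicate number and the eggs' numbers are only names.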
